A study of Mus musculus with 10 samples.

Results

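Interferon-stimulated genes are genes whose transcription rises when a cell receives an interferon signal. A list of 42 such mouse genes was taken by symbol, and all 42 were among the 20270 genes of the deposited table and among the 15143 genes tested. They were followed across 10 bulk RNA-seq libraries of hematopoietic stem cells (HSCs), the cells that renew the blood. Flow cytometry was used to purify the HSCs from bone marrow of C57BL/6 recipients transplanted with lineage-negative marrow (marrow depleted of mature blood cells) of either Id1+/+ (wild type, WT) or Id1-/- (knockout, KO) donors. The labels split each genotype into a normal and a stressed condition, which gives WT normal (3 libraries), WT stressed (2), KO normal (3) and KO stressed (2). The words normal and stressed are not defined in the labels. Every library is labelled 4 weeks after transplantation, whereas the series design gives 6 weeks. The labels do not say whether libraries came from separate mice or from pools, so p-values measure only the spread between these libraries.

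Type I interferons bind the receptor IFNAR and interferon gamma binds IFNGR, and both receptors signal through JAK kinases. Type I interferon assembles the complex ISGF3, which includes STAT2 and IRF9 and binds the interferon-stimulated response element (ISRE), and interferon gamma acts mainly through another element, GAS. The induced genes include RNA sensors, enzymes that degrade or edit RNA, GTPases that attack intracellular pathogens and membrane proteins that block virus entry. Stem cells are known to express part of this program without infection, and interferon is known to drive quiescent HSCs into the cell cycle. The protein Id1 has no DNA-binding domain and blocks the E-protein transcription factors it pairs with.

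The depth estimated from the lowest values was 25700000 to 33000000 reads per library. These values had been quantile normalized to nearly the same set in every library. The estimate is therefore rough, and the reads behind 1 CPM in each library are not known. CPM is the usual unit that sets a gene's reads against all reads of its library. Id1 went against its labels. It read 1.35, 1.72 and 3.17 CPM in WT normal, 1.28 and 4.39 in WT stressed, 13.2, 10.6 and 9.62 in KO normal and 9.06 and 8.44 in KO stressed libraries. The mean difference of the KO-labelled from the WT libraries was 2.19 on the log2 scale (SE 0.36, limma adjusted p = 0.0134). The labels do not say which part of the gene was deleted, so this level does not settle the genotype, and every genotype direction below is that of libraries labelled KO against libraries labelled WT. In principal components of all genes, the library labelled KO normal A and WT stressed A stood apart from their groups. The 9 HSC markers used were all present and summed to 2832 to 3889 CPM in each library, while 3 measured markers of plasmacytoid dendritic cells, a major interferon-producing cell, summed to 2.58 CPM at most.

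The ISRE was searched in the promoters of the members as 2 copies of GAAA with 2 bases of any kind between them, on both strands, where runs may overlap. RefSeq promoter windows (GRCm38.p6, 250 bases before to 50 after the start of a gene) were matched for 31 of the 42 genes. An ISRE match lay in 17 of those 31 genes (54.8%), against 3.99% of the 27025 genes with a window. The GAS pattern TTCNNNGAA, which reads the same on both strands, was found in 10 of the 31 (32.3%), against 9.55% of all. Isg15 and Ifit1, classical type I interferon targets, are shown for the arrangement of the element. Apol9b and Ifitm1 are shown because they were the members with the largest rise and the largest fall under stress averaged over both genotypes. Each stretch runs from 140 to 21 bases before the RefSeq start, 5′ to 3′ on the strand of the gene, with ISRE matches in capitals (GAAA copies on the gene's strand, TTTC copies where the match is on the other strand). They lie at chr4:156200839-156200958 (minus strand, Isg15), chr19:34640749-34640868 (plus, Ifit1), chr15:77728932-77729051 (plus, the first of a pair of Apol9b windows) and chr7:140967936-140968055 (plus, Ifitm1).
Isg15: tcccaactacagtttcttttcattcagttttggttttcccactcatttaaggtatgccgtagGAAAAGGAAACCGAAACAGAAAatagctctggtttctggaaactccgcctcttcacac
Ifit1: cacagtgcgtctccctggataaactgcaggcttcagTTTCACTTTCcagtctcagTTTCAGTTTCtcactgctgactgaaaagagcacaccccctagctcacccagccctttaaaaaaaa
Apol9b: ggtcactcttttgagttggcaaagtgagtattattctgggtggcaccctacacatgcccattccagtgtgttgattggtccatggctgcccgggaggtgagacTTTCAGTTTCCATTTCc
Ifitm1: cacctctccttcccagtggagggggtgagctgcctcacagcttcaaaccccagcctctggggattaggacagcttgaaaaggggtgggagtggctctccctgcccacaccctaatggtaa

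Isg15 carried 3 overlapping matches starting 78, 72 and 66 bases before the start. Ifit1 carried a pair starting 104 and 85 bases before it, and Apol9b a pair of overlapping matches. Ifitm1 held no match of either pattern in its whole 300-base window, which says only that these letters were not in it. That window (chr7:140967826-140968125) lies inside the gene as annotated by GENCODE, which begins at chr7:140967221. The sequence before that GENCODE start was not searched. In 13 of the 17 genes a match began before the start. In the other 4, Ddx58, Eif2ak2, Ifih1 and Ifitm3, the matches began after it. Members with and without a match had a median stressed minus normal difference of 0.0044 (17 genes) and -0.0765 (14 genes) on the log2 scale, and a median KO minus WT difference of 0.0852 and 0.0534. Oas2, Mx1, Mx2, Ifi27, Usp18, Rtp4, Parp9, Parp14, Dhx58, Iigp1 and Ly6e had no entry.

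All 42 genes were expressed in every group. Their median level over the 10 libraries was 6.45 log2 CPM, against 4.82 for all genes tested. That level was above the mean level of 77.6% of the tested genes. The median standard deviation (SD) of a member within its groups was 0.134, against 0.221 for all genes tested. Genes of like level were not set beside the members, so the smaller SD is not read as particular to them. Per kilobase of exon, which allows genes to be compared, 8 members ranked at or above the 90th percentile of the tested genes and 3 ranked under the 50th. The 3 highest were membrane proteins. Ifitm3 (chr7:141009586-141010770), which restricts virus entry at endosomes, averaged 647 CPM per kilobase and ranged from 609.8 to 734. Ifitm1 (chr7:140967221-140969825), its relative at the cell surface, averaged 350.3 with a range of 220 to 479. Ly6e (chr15:74955051-74959905), a lipid-anchored surface protein, averaged 168 with a range of 158 to 176. These 3 ranges did not overlap. The lowest were Mx2 (mean 2.17, range 1.29 to 3.57), Apol9b (2.34, 0.335 to 5.38) and Mx1 (2.66, 1.48 to 4.62), and their ranges did overlap. Mx1 and Mx2 belong to a family of dynamin-like antiviral GTPases. The C57BL/6 strain, named above for the recipients, is known to carry a defective Mx1 allele. The annotation used here lists Mx2 as a polymorphic pseudogene.

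**Figure D1:**
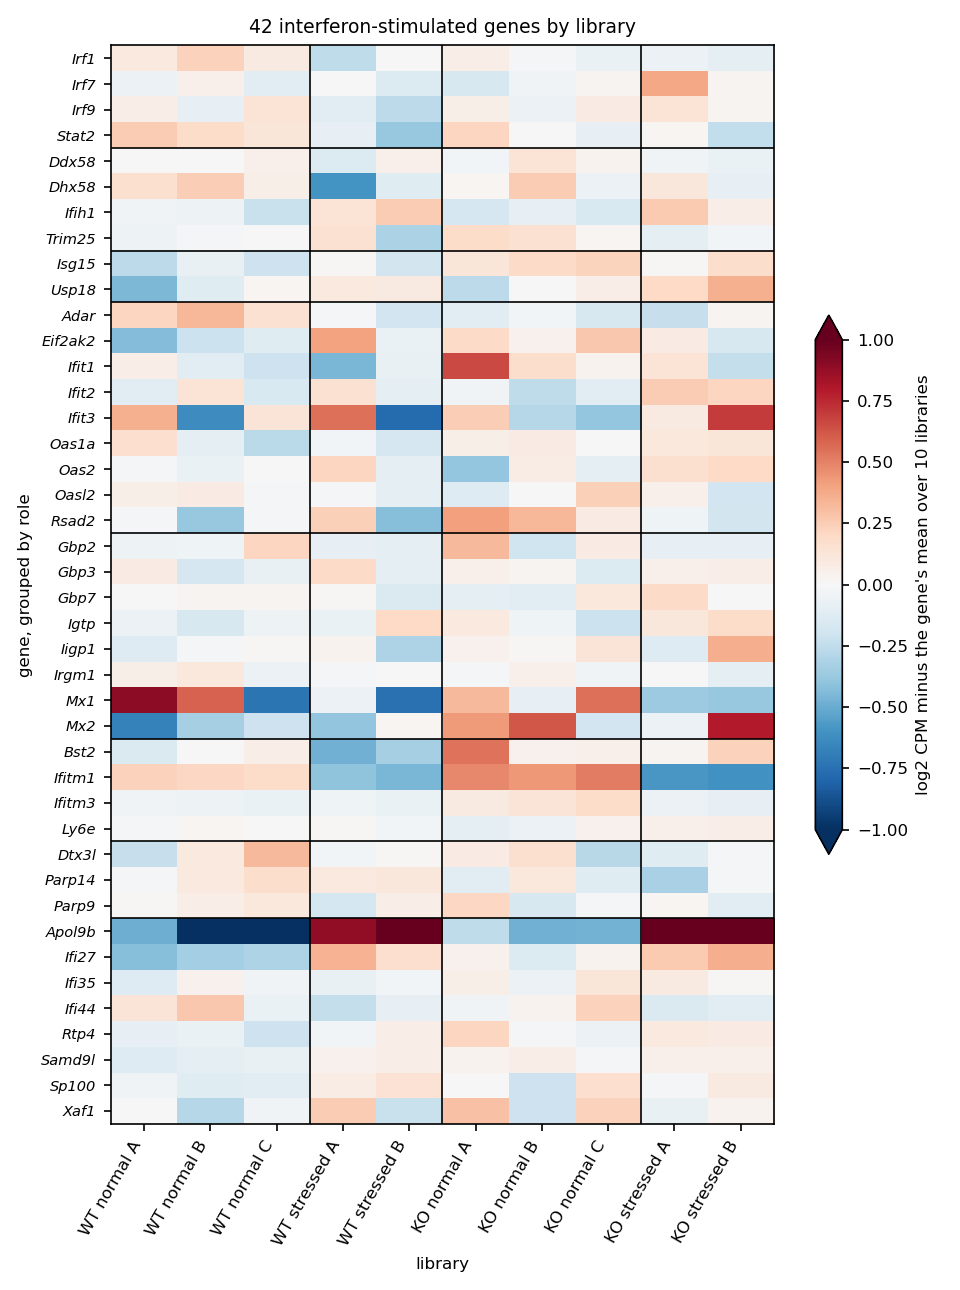
Log2 CPM of each of the 42 genes (rows, grouped by role) in each library (columns, grouped by genotype and condition), minus the mean of that gene over the 10 libraries. Red is above and blue below the mean, and colours stop at 1 log2 unit on either side, which Apol9b passes. Most rows are pale, and Ifitm1, Apol9b and Ifi27 separate the stressed from the normal libraries.

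Stress moved few of these genes, where in bulk libraries fewer cells that express a gene and less RNA per cell cannot be told apart. Averaged over both genotypes, 3 of the 42 rose (Apol9b, Ifi27 and Ifih1), 1 fell (Ifitm1) and 38 did not pass the test, which is 9.52% called against 8.29% of all genes tested (1256 genes, adjusted p under 0.05). The median member difference was -0.00984, against 0.00273 for all genes. In WT HSCs 3 members (7.14%) were called, Apol9b and Ifi27 upward and Ifitm1 downward, against 3.3% of all genes. In KO-labelled HSCs 2 were called, Ifitm1 and Ifitm3, both downward (4.76%, against 4.5%). Libraries of the 2 conditions did not overlap for 17 members in WT (40.5%, against 36.4% of all genes), 16 in KO-labelled HSCs (38.1%, against 33.1%) and 6 over both genotypes together (14.3%, against 8.28%). The share called was near that of all genes for the mean and in KO-labelled HSCs, and above it in WT HSCs, where 3 named genes make it up.

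Ifitm1 gave the smallest p of the 42 genes. It read 430, 424 and 417 CPM in WT normal and 278 and 268 in WT stressed libraries. It read 512, 495 and 524 CPM in KO normal and 245 and 241 in KO stressed libraries. Every stressed library lay below every normal one, and the KO-labelled libraries were the highest when normal and the lowest when stressed. The fall under stress was 0.63 log2 units in WT HSCs (SE 0.050, limma adjusted p = 6.59e-05) and 1.07 with the KO label (SE 0.050, limma adjusted p = 5.73e-07), a 1.55-fold and a 2.1-fold lower level. The mean over genotypes was -0.85 (SE 0.036, limma adjusted p = 1.04e-07). The difference between both falls was -0.44 (SE 0.071, limma unadjusted p = 6.91e-05), which did not pass after adjustment over all genes (limma adjusted p = 0.0747). The falls under stress kept their call in every alternative run.

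Ifitm3 lies beside Ifitm1 on chromosome 7 on the opposite strand. It read 427, 423 and 417 CPM in WT normal, 426 and 417 in WT stressed, 466, 479 and 497 in KO normal, and 420.1 and 413 in KO stressed libraries. The 3 KO normal libraries were above the other 7, which lay between 413 and 427 CPM. The stressed minus normal difference was -0.21 with the KO label (SE 0.047, limma adjusted p = 0.0316) and -0.0028 in WT HSCs (SE 0.047, limma adjusted p = 0.987). The difference between these changes was not past the threshold (-0.20, SE 0.067, limma adjusted p = 0.392). The call in KO-labelled HSCs was lost without KO stressed A (limma adjusted p = 0.131), KO stressed B (0.187), KO normal B (0.0573), KO normal C (0.0949), WT normal B (0.0538) or WT normal C (0.055). The Ifitm3 call was also lost without the variance trend (limma adjusted p = 0.211), with only the groups compared (0.143) or with a replicate block (0.0988). Ly6e, the other abundant surface gene, read 598 to 665 CPM over all 10 libraries and was not called in any comparison. Of the transcript of Ifitm1, 6.36% of its 50-base words also occurred in other genes, and 10% of those of Ifitm3, so shared reads could enter both values.

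**Figure D2:**
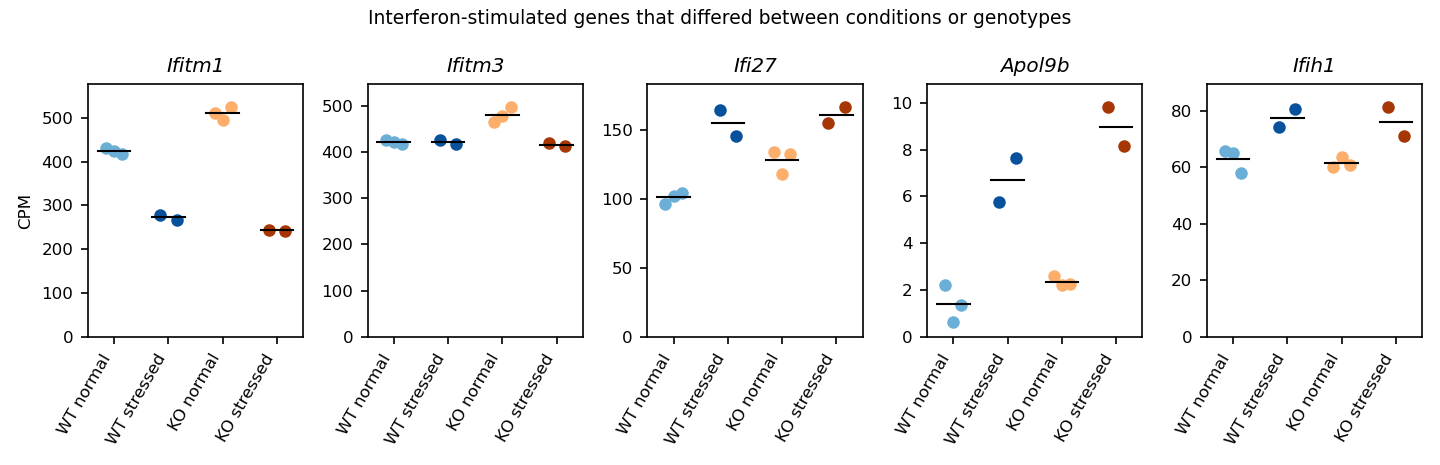
CPM (vertical axes, each starting at 0) of the 5 members called in at least 1 comparison, by genotype and condition; points are libraries and lines are group means. Ifitm1 lies between 241 and 278 CPM in the 4 stressed libraries and between 417 and 524 in the 6 normal ones, whereas Apol9b and Ifi27 are higher in every stressed library than in any normal one.

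Apol9b (chr15:77729039-77736382), of the apolipoprotein L family, had the largest relative change. It read 2.21, 0.61 and 1.36 CPM in WT normal, 5.75 and 7.64 in WT stressed, 2.61, 2.22 and 2.24 in KO normal, and 9.80 and 8.15 in KO stressed libraries. Each stressed library was above each normal library, and within both conditions the KO-labelled libraries were above the WT ones. The mean rise was 2.18 log2 units, a 4.54-fold higher level (SE 0.35, limma adjusted p = 0.00277), and this call held in all 21 alternatives. Within WT the rise was 2.44 (SE 0.49, limma adjusted p = 0.0214), a call lost without WT stressed A (limma adjusted p = 0.0762), WT stressed B (0.131) or WT normal C (0.055). The WT call was also lost without the variance trend (limma adjusted p = 0.0615) or with only the groups compared (0.0976). Within KO-labelled HSCs the value was 1.93 (SE 0.49, limma adjusted p = 0.0516). Of its 50-base words 51.4% also occur in Apol9a, so the values of the pair are uncertain.

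Ifi27 (chr12:103434211-103440239), a small interferon-induced protein, was higher in every stressed library than in any normal one. It read 96.5, 102 and 104 CPM in WT normal, 165 and 146 in WT stressed, 134, 118 and 133 in KO normal, and 155 and 166 in KO stressed libraries. The rise was 0.62 in WT HSCs (SE 0.092, limma adjusted p = 0.00409) and the value was 0.33 with the KO label (SE 0.092, limma adjusted p = 0.0764), with a mean of 0.47 (SE 0.065, limma adjusted p = 0.000943). The KO normal libraries lay above the WT normal ones, with a difference of 0.34 that was not past the threshold (SE 0.082, limma adjusted p = 0.0747). The calls in WT and over both genotypes held in all alternatives run.

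Ifih1 (chr2:62595798-62646255) encodes MDA5, a sensor of long double-stranded RNA. It read 65.8, 65.1 and 57.8 CPM in WT normal and 74.3 and 80.4 in WT stressed libraries. It read 60.01, 63.7 and 60.6 CPM in KO normal and 81.1 and 70.9 in KO stressed libraries. The conditions did not overlap, and the value was 0.30 in each genotype. Only their mean passed (0.30, SE 0.077, limma adjusted p = 0.0339), and the call was lost without KO stressed A (limma adjusted p = 0.133), KO normal A (0.0511), KO normal C (0.0611), WT stressed A (0.0604), WT stressed B (0.112), WT normal A (0.0517), WT normal B (0.0559) or WT normal C (0.0795). The Ifih1 call was also lost without the variance trend (limma adjusted p = 0.0585). The other RNA sensors were not called. Dhx58 (LGP2, a relative that tunes MDA5 signals) read 75.8, 80.2 and 70.6 CPM in WT normal and 44.8 and 62.3 in WT stressed libraries, with KO-labelled libraries between 63.9 and 80.9. Its WT difference of -0.51 was not past the threshold (SE 0.15, limma adjusted p = 0.105), but was without WT stressed B (-0.75, limma adjusted p = 0.0433). Ddx58 (RIG-I) lay between 130 and 157 CPM and Trim25, the ubiquitin ligase that acts on RIG-I, between 77.2 and 110 CPM.

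**Figure D3:**
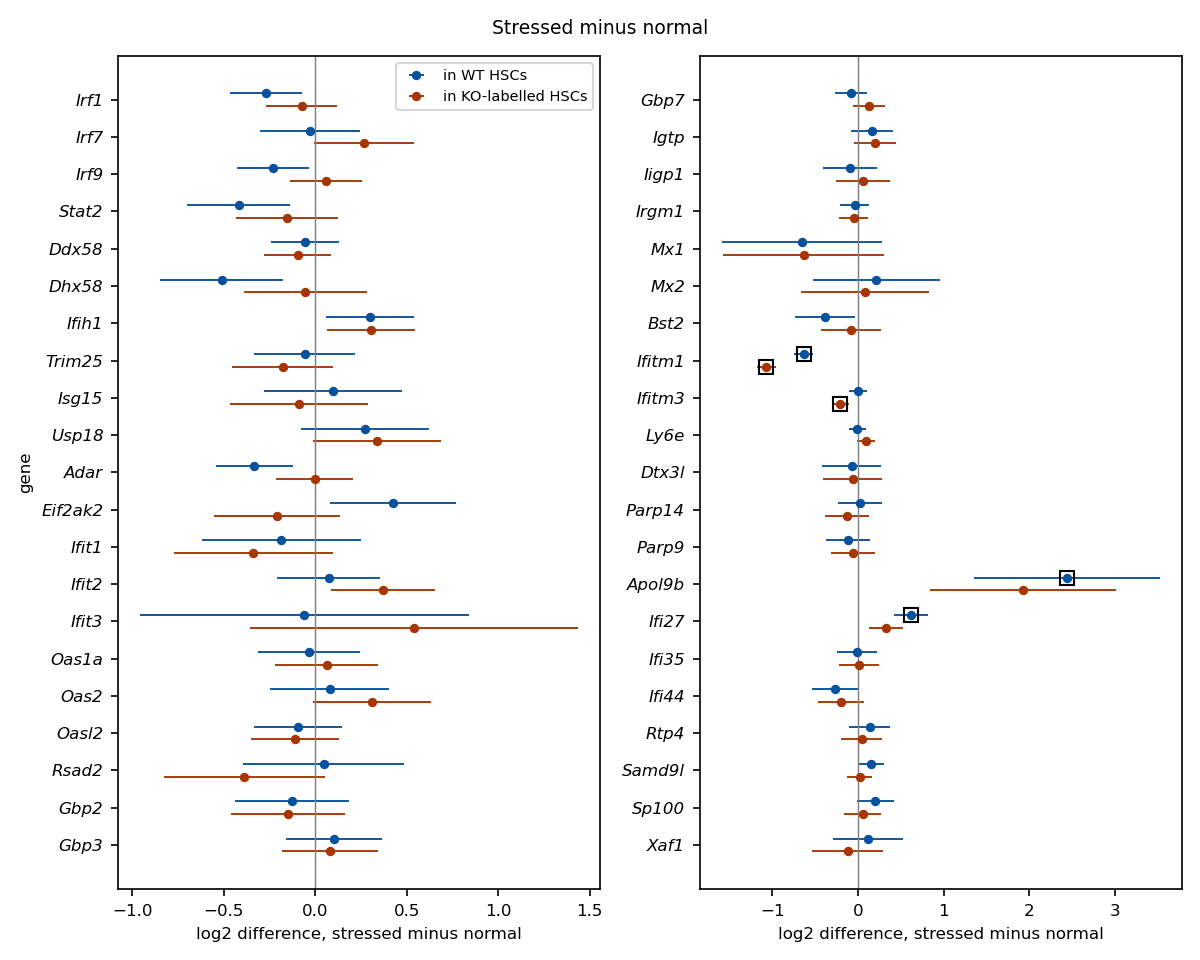
Stressed minus normal log2 difference of each of the 42 genes in WT (blue) and KO-labelled (orange) HSCs, with 95% confidence intervals; open squares mark an adjusted p under 0.05. Most intervals include 0, and 3 squares in WT and 2 in KO-labelled HSCs mark the calls. The panels have different horizontal scales.

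The transcription factors were not called in any comparison. Stat2, a subunit of ISGF3, read 121, 115 and 110 CPM in WT normal and 95.4 and 77.6 in WT stressed libraries, groups that did not overlap. KO normal read 118, 101 and 95.6 CPM and KO stressed 103 and 85.3. The WT difference was -0.42 (SE 0.13, limma adjusted p = 0.111) and the mean difference -0.29 (SE 0.090, limma adjusted p = 0.0783). Irf1, a factor induced strongly by interferon gamma, read 177, 193 and 176 CPM in WT normal, 138 and 164 in WT stressed, 173, 164 and 158 in KO normal and 159 and 154 in KO stressed libraries. Its WT difference was -0.27 (SE 0.089, limma adjusted p = 0.137). Irf9, the DNA-binding subunit of ISGF3, read 150 and 136 CPM in WT stressed against 179 and 166 in KO stressed libraries, and 153 to 179 in the normal ones. Its KO minus WT difference in stressed HSCs was 0.27 (SE 0.098, limma adjusted p = 0.458). Irf7, which amplifies type I interferon production, lay between 65.9 and 96.6 CPM, with KO stressed A highest. In WT stressed HSCs all 4 factors had a value below WT normal, with a median of -0.25 that no test accompanies.

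The RNA-binding effectors were not called in any comparison either. Adar, which edits adenosine in double-stranded RNA, read 210.2, 229 and 202 CPM in WT normal and 155 to 185 in the other 7 libraries, with no overlap. Its KO minus WT difference in normal HSCs was -0.33 (SE 0.086, limma adjusted p = 0.0994) and its stress difference in WT HSCs was -0.33 (SE 0.096, limma adjusted p = 0.095); both use the 3 WT normal libraries. Of its exon bases 16.8% overlap Chrnb2 on the opposite strand. Eif2ak2 (PKR), a kinase that halts translation when it binds double-stranded RNA, read 48.6, 56.8 and 60.5 CPM in WT normal, 87.1 and 62.8 in WT stressed, 75.2, 67.6 and 79.4 in KO normal, and 69.5 and 59.0 in KO stressed libraries. WT normal lay below KO normal without overlap, by 0.42 (SE 0.14, limma adjusted p = 0.198). Ifit2, which binds viral RNA, read 71.0 and 69.4 CPM in KO stressed against 49.9 to 58.1 in KO normal libraries (difference 0.37, SE 0.13, limma adjusted p = 0.149). The other members of the group were not called: Ifit1 (40.1 to 86.9 CPM), Ifit3 (6.77 to 18.7), Oas1a (55.1 to 74.5), Oas2 (40.98 to 62.1), Oasl2 (146 to 197) and Rsad2 (29.5 to 52.5). More than 50% of the 50-base words of Ifit3 (51.2%) and Oas1a (57.6%) occur in Ifit3b and Oas1g or Oas1b, so these values are uncertain.

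Isg15, a ubiquitin-like modifier, read 13.1, 14.9 and 13.6 CPM in WT normal, 15.9 and 13.8 in WT stressed, 17.1, 18.0 and 18.3 in KO normal and 15.8 and 17.7 in KO stressed libraries. KO normal lay above WT normal without overlap, with a difference of 0.36 that did not pass (SE 0.15, limma adjusted p = 0.326). Usp18, which removes ISG15 and restrains IFNAR signalling, read 32.8 to 45.4 CPM in WT normal, 47.7 and 47.5 in WT stressed, 37.3 to 46.9 in KO normal and 51.2 and 57.0 in KO stressed libraries. All 4 stressed libraries were above all 6 normal ones, and the mean difference of 0.30 was not past the threshold (SE 0.11, limma adjusted p = 0.13). Isg15 and Usp18 were chosen for description after their values were seen.

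Bst2 (tetherin), which holds budding virions at the cell surface, read 54.6, 60.7 and 63.4 CPM in WT normal and 43.2 and 47.9 in WT stressed libraries. It read 87.9, 62.4 and 62.6 CPM in KO normal and 61.7 and 70.9 in KO stressed libraries. KO-labelled lay above WT in stressed HSCs without overlap, and KO normal A was the highest library. The mean KO minus WT difference was 0.39 (SE 0.11, limma adjusted p = 0.156). Ifi44 read 78.3 to 98.3 CPM in WT normal, 69.5 and 77.3 in WT stressed, 79.6 to 96.0 in KO normal and 74.1 and 76.2 in KO stressed libraries. Its conditions did not overlap, and the mean difference of -0.23 was not past the threshold (SE 0.086, limma adjusted p = 0.13). The PARP and DTX3L proteins, which act in ADP-ribosylation and ubiquitination, had a mean stress difference from -0.09 to -0.05, and none of the 3 was called.

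The guanylate-binding proteins (GBPs), GTPases that coat intracellular pathogens and respond strongly to interferon gamma, separated by gene. Members Gbp2, Gbp3 and Gbp7, on chromosome 3, had mean stress differences of -0.14 (SE 0.10), 0.09 (SE 0.085) and 0.02 (SE 0.061), none called. The 95% intervals were -0.36 to 0.08, -0.10 to 0.28 and -0.11 to 0.16. Another 6 relatives came from a list of 46 other interferon-induced genes. The 5 of them on chromosome 5 fell: Gbp4 (-0.94, SE 0.12, limma adjusted p = 0.000442), Gbp6 (-0.66, SE 0.12, limma adjusted p = 0.00642), Gbp8 (-1.11, SE 0.15, limma adjusted p = 0.000801), Gbp9 (-1.14, SE 0.13, limma adjusted p = 0.000259) and Gbp10 (-1.36, SE 0.35, limma adjusted p = 0.033). Gbp5, on chromosome 3, also fell (-0.62, SE 0.11, limma adjusted p = 0.00481). Gbp9 (chr5:105077630-105139539) read 56.2, 52.4 and 53.4 CPM in WT normal, 21.04 and 21.97 in WT stressed, 39.5, 40.8 and 40.6 in KO normal and 16.2 and 26.7 in KO stressed libraries, so every stressed library was below every normal one. Gbp4 read 47.7 to 48.4 CPM in WT normal, 26.6 and 19.8 in WT stressed, 36.5 to 43.1 in KO normal and 25.5 and 20.6 in KO stressed libraries. Of the 50-base words of Gbp6 and Gbp10, 59.7% and 82.5% occur in other genes, so their values are uncertain. For Gbp4, Gbp8 and Gbp9 the shares were 12.8%, 18.2% and 8.31%. These 3 genes also overlap each other on the same strand, in 0.814%, 1.77% and 1.16% of their exon bases. Shared reads could therefore enter their values too. No test was made of chromosome 5 against chromosome 3, and the family was set out after its values were seen.

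**Figure D4:**
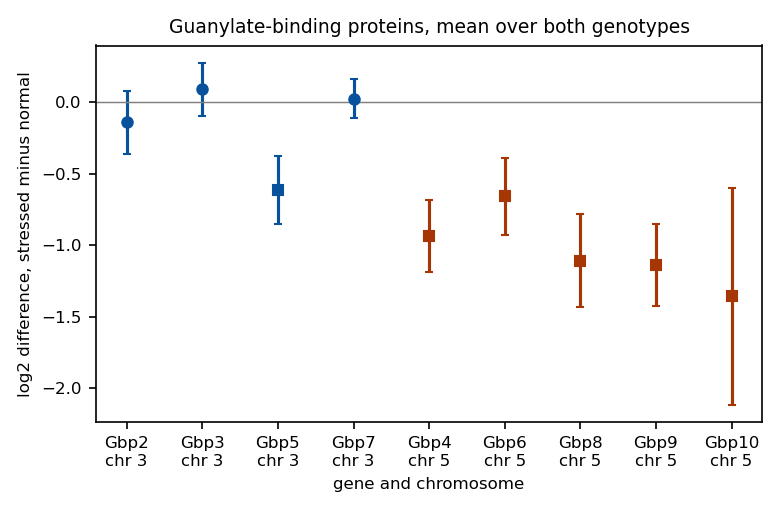
Stressed minus normal log2 difference (vertical axis, mean over both genotypes, 95% confidence interval) of 9 guanylate-binding protein genes with their chromosome. Circles are members of the 42 genes and squares are other interferon-induced genes; the intervals of Gbp2, Gbp3 and Gbp7 include 0 and those of the other 6 lie below it.

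In that list of 46 other interferon-induced genes, 3 rose and 11 fell under stress over both genotypes, which is 30.4% called against 8.29% of all genes, with a median of -0.129. The list was chosen with earlier results known, and nothing particular to it is read from that share. Phf11d rose by 1.24 (SE 0.14, limma adjusted p = 0.000203), from 9.05 to 11.2 CPM in the normal to 20.6 to 30.3 CPM in the stressed libraries. Without KO stressed B the list had 9 calls, 3 higher and 6 lower. Among 8 tested receptors and JAK kinases, Jak1, the kinase shared by both interferon receptors, fell by 0.22 (SE 0.038, limma adjusted p = 0.00434) and Ifngr1, the ligand-binding chain of the interferon gamma receptor, fell by 0.25 (SE 0.064, limma adjusted p = 0.0314). Without the trend in the prior variance both calls were lost (limma adjusted p = 0.0804 for Jak1 and 0.0807 for Ifngr1). The Ifngr1 call was lost without KO stressed A (limma adjusted p = 0.0544), KO stressed B (0.121), WT stressed A (0.101), WT stressed B (0.0611), WT normal A (0.0631) or WT normal B (0.0731). Ifnar2, a chain of the type I receptor, had no call (mean genotype difference -0.19, SE 0.065, limma adjusted p = 0.246). Of 11 tested IRFs and signalling inhibitors none was called, and Irf3 came nearest (-0.24, SE 0.067, limma adjusted p = 0.0508). Of 12 tested nucleic acid sensing genes, Ikbke, a kinase that activates IRF3, fell by 0.52 (SE 0.12, limma adjusted p = 0.0192), a call lost without KO stressed A (0.0779), KO stressed B (0.0572), WT stressed A (0.0537) or WT stressed B (0.0588), or without the variance trend (0.0654). None of the 10 interferon ligand genes listed was matched among the genes of the deposited table, so they were not analysed here.

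Other markers moved with stress too. Of 9 HSC markers 5 fell (55.6%, against 8.29% of all genes called) and none rose, among them Hlf (by 0.57) and Fgd5 (by 0.77), and their summed level was 3654 to 3889 CPM in WT normal, 3058 to 3243 in WT stressed, 3104 to 3320 in KO normal and 2832 to 2933 in KO stressed libraries. Of 6 megakaryocyte markers 4 rose (66.7%), among them Pf4 (by 1.24), and the sum was 781 to 918 CPM in the normal and 1294 to 1385 in the stressed libraries. The 8 measured B and plasma cell markers summed to 209 and 210.3 CPM in KO stressed and to 46.7 to 57.9 in all other libraries. Of the 3 measured T and NK cell markers, Nkg7, a cytotoxic granule gene, rose by 0.84 (SE 0.070, limma adjusted p = 3.27e-05), while Cd4 (-3.96) and Klrb1c (-1.12) had values below 0 that were not called. Nkg7 made up most of the sum of the 3, which was 61.3 to 68.5 CPM in the normal and 98.1 to 123 in the stressed libraries. Monocyte and macrophage markers (9 measured) summed to 277 to 370.2 CPM, and granulocyte markers (9 measured) to 90.5 to 135, highest in KO normal. Most of each sum was a single gene, Lyz2 (246.7 to 338 CPM) and Prtn3 (73.95 to 102.5 CPM). The erythroid sum (10 genes) was 215 to 237 CPM in WT stressed and 283 to 311 in the other groups. Of 9 tested erythroid markers 3 fell and 1 rose over both genotypes (44.4% called, median difference -0.788), so the sum joins opposite changes. Car1 read 137.8 to 152.5 CPM in KO normal and 86.6 and 80.7 in KO stressed libraries. Gata1 read 74.3 to 89.2 CPM in KO normal and 110 and 129 in KO stressed libraries. Of 7 tested granulocyte markers 2 fell (28.6%), and of 6 B and plasma cell markers 1 rose (16.7%). The plasmacytoid dendritic cell sum was 0 in both WT stressed libraries and 0.0675 to 2.58 in the others. The part of these shifts in the changes of Ifitm1, Apol9b, Ifi27, Ifih1 and the GBPs was not tested.

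Between genotypes, 1 member was called. Ifitm1 was higher in KO normal than in WT normal libraries, by 0.27 log2 units or 1.2-fold (SE 0.045, limma adjusted p = 0.0107). That is 1 of 42 members (2.38%), against 1.56% of all genes. The call was lost without KO normal C (limma adjusted p = 0.055), WT normal B (0.0592) or WT normal C (0.0664). In stressed HSCs none was called, against 0.145% of all genes, and the difference of Ifitm1 was -0.17 (SE 0.055, limma adjusted p = 0.406). At an unadjusted p under 0.05, limma gave 3 higher and 1 lower in stressed HSCs (9.52%, against 8.88% of all genes). Over both conditions together none was called (1.07% of all genes), with 5 higher and 2 lower at an unadjusted p under 0.05 (16.7%, against 13.1%). For the interaction none was called (0.0198% of all genes), with 2 higher and 4 lower at an unadjusted p under 0.05 (14.3%, against 9.15%).

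More members leaned upward than downward in the KO-labelled libraries, by small amounts. The difference was above 0 for 24 of 42 members in normal HSCs (57.1%, against 48.5% of all genes), 28 in stressed HSCs (66.7%, against 49.9%) and 32 over both (76.2%, against 49.2%). In normal HSCs 11 members were higher without overlap (26.2%, against 10.9% of all genes) and 2 were lower (4.76%, against 8.64%). In stressed HSCs it was again 11 (26.2%, against 19.2%) and 2 (4.76%, against 19.9%). The median mean difference was 0.0602 log2 units, against -0.00367 for all genes, and it ranged from 0.0334 to 0.0932 when libraries were left out in turn. Averaged over the 42 genes, the deviation from the mean of each gene was 0.0874, 0.0146 and 0.021 in KO normal and 0.0529 and 0.0677 in KO stressed libraries. It was -0.0292, -0.0731 and -0.0632 in WT normal and 0.00329 and -0.0814 in WT stressed libraries. The lowest KO-labelled library lay just above the highest WT library, WT stressed A. The members share these libraries and were not drawn at random, so no p is given. The list of 46 other interferon-induced genes showed less of this lean. Its difference was above 0 for 22 genes in normal HSCs, 24 in stressed HSCs and 26 over both. The medians were -0.00142, 0.00183 and 0.0274. The contrast between both lists was not tested. Of the 9 HSC markers 8 had a value below 0 in KO-labelled libraries, with a median of -0.159, and 1 was called (Kit, -0.22, SE 0.037, limma adjusted p = 0.0147). Among other cell markers, Mpo of granulocytes was called higher over both conditions (2.43, limma adjusted p = 0.00325), 1 of 7 tested. Igkc and Jchain of plasma cells were too (5.46 and 3.28, limma adjusted p = 0.00613 and 0.00355), 2 of 6 tested. So was Car1 of erythroid cells (0.40, limma adjusted p = 0.0212), 1 of 9 tested. Of all genes 1.07% were called. In these lists 1, 2 and 3 tested markers had a value below 0. Igkc read 130 and 136 CPM in KO stressed but 0.456 to 1.5 in KO normal libraries. Jchain read 26.7 and 27.7 against 0.687 to 1.02. The part of these markers in this lean was not tested.

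**Figure D5:**
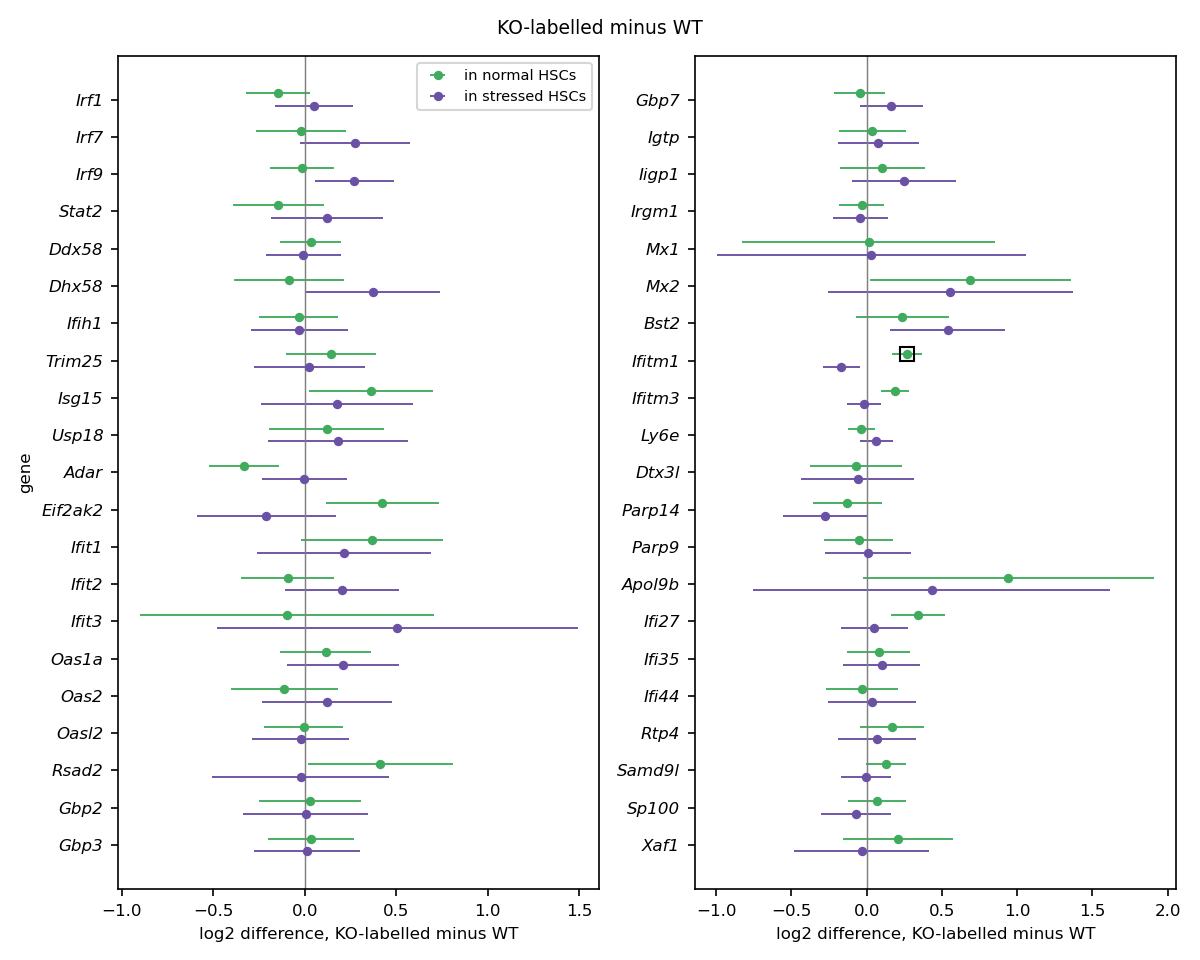
KO-labelled minus WT log2 difference of each of the 42 genes in normal (green) and stressed (purple) HSCs, with 95% confidence intervals; open squares mark an adjusted p under 0.05. The square is that of Ifitm1 in normal HSCs, and 24 genes in normal and 28 in stressed HSCs lie right of 0. The panels have different horizontal scales.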

How the data were processed

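Bulk RNA-seq of 10 HSC libraries was used. The submitters' processing notes name Bowtie2 and featureCounts, without versions, and the build mm10. Strandedness is not given in the sources used here. The deposited table holds log2 CPM made by the authors with limma voom, per its name. All libraries share nearly the same set of values from -5.90 upward, so values had been quantile normalized, which can narrow the spread of abundant genes. Genes above 0 in at least 2 libraries were kept (15143 of 20270). limma 3.58.1 (R 4.3.3) fitted 4 group means over 10 libraries (variance trend, 6 residual degrees of freedom), with Benjamini-Hochberg adjustment over all genes tested and a threshold of 0.05. Mean differences average both genotypes or both conditions. Depth was estimated by taking successive distinct low values of a library as successive read counts from 10 to 100. Quantile normalization does not keep these steps, so the estimate is rough. Coordinates and exon lengths are from GENCODE vM21 (mm10, 20199 identifiers matched), promoters from RefSeq (GRCm38.p6). The model was tested on simulated data. Plots used matplotlib 3.10.9 in Python 3.11.15.

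The members and gene lists were chosen with earlier results of these data known. Per-library values are given for members called in any comparison and for others by smallest p until 14 were named, for the 3 highest and 3 lowest per kilobase, and for Id1. Up to 3 genes with the smallest p were named per pathway list, and further genes, including the GBP family, were named after their values were seen. A gene of the HSC marker list and one of the receptor and kinase list are not reported here. Letters of same-lettered libraries did not pair them: the correlation of their deviations lay between -0.024 and 0.0375 over 13 pairs, so no block was used. Alternatives covered the variance trend, filters, pseudocounts, scalings, library weights, a replicate block, the threshold, the groups fitted and each library left out.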

Additional observations from a re-analysis of the deposited data

How the results depend on the processing

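None of the 38 differences of single genes that were recomputed (26 genes) changed direction in up to 22 alternatives, while those of the other genes described, such as Isg15, Usp18, Ly6e and the markers, were not recomputed. With the main setting given first, members called in KO against WT normal HSCs (1) numbered 0 without the variance trend, 2 with library weights, 4 at a threshold of 0.10 and 0 to 2 with a library left out. In stressed against normal KO HSCs (2) they numbered 1 without the trend, 1 with a replicate block, 4 at 0.10 and 1 to 3 with a library left out. The interaction (0) gave 1 at 0.10. With the replicate block, Apol9b in WT (limma adjusted p = 0.0539) and Ifih1 over both genotypes (0.132) also lost their calls. Whether the letters pair libraries is not known. The other interferon-induced genes called under stress (14) numbered 9 to 13 with a library left out.

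In stressed HSCs the KO minus WT median (0.0515) was 0.036 to 0.113 with a library left out and 0.113 without both libraries that stand apart, an alternative added after the data were seen. The mean genotype median (0.0602) was 0.0334 to 0.0932. The mean condition median (-0.00984) was -0.0429 to 0.0231, and -0.0381 without both. In KO HSCs the stress median (-0.026) was -0.0476 to 0.0211, and 0.0211 without both, and in WT HSCs (-0.0316) it was -0.0529 to 0.012. So the sign of the stress medians rests on which libraries enter.

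Counts over all genes moved more. They were 45 to 400 for KO against WT in normal (236) and 0 to 58 in stressed HSCs (22), 22 to 287 for the mean genotype difference (162), 251 to 872 for stress in WT (500) and 249 to 1067 in KO HSCs (682), 773 to 1891 for the mean condition difference (1256) and 1 to 26 for the interaction (3). The causes were not tested. Centring each library on the median of its tested genes shifted it by at most 0.000781. Quantile normalization makes the library medians nearly equal in advance, so this shift does not test the scaling.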
